A study of Rattus norvegicus with 3 samples.

Results

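Transcription factors of retinal progenitor cells (RPCs) were examined in the transcriptome of neonatal rat retina after intravitreal injection of streptozotocin (STZ), a DNA-alkylating analog of N-acetyl glucosamine. The members were Pax6, Rax, Lhx2, Six3, Six6, Sox2, Sox8, Nr2e1 and Meis2, 9 of the 18425 genes in the expression table. They were picked by gene symbol, but with earlier results of these data known. Wild-type Sprague Dawley rats received 1 µl of citrate buffer (pH 4.5; Buffer), of saline (Saline) or of STZ (10 µg) into the vitreous at postnatal day 1 (P1), and total RNA of dissected whole retinas was sequenced at P4. Each condition is 1 library, with 21977846 to 22031241 assigned reads, and the number of retinas or animals behind a library is not given in the sources used here. No difference below therefore has a replicate check or a p-value, and each comparison is between libraries, in which treatment and handling of the samples cannot be told apart. In the study's tests of intravitreal doses at P1, buffer went into the other eye of the treated pup, but whether the sequenced retinas were such pairs is not stated.

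RPCs are the dividing cells that give rise to all neurons of the retina and to Müller glia, and in the rat they still divide in the first days after birth. Pax6, Rax, Lhx2, Six3 and Six6 encode homeodomain proteins of the eye field network, which specifies the eye primordium and later keeps RPCs competent to divide and to form retinal cells. Sox2 and Sox8 encode HMG-box proteins, Nr2e1 encodes the orphan nuclear receptor Tlx, and Meis2 encodes a TALE homeodomain protein that acts with PBX partners. After progenitors leave the cell cycle, Pax6, Meis2, Six3 and Six6 stay on in amacrine cells or ganglion cells, whereas Rax, Lhx2, Sox2, Sox8 and Nr2e1 are kept in Müller glia. Bulk RNA of whole retina cannot tell fewer cells of a type from less RNA per cell.

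All 9 genes were well measured, with mean counts over the 3 libraries from 1563 for Nr2e1 to 12460.7 for Pax6, and the deposited counts of all 9 are whole numbers. In STZ, Lhx2 and Nr2e1 were lower than in both controls past the fold threshold, Sox8 was lower past it against Saline, Sox2, Rax, Six3 and Six6 were moderately lower, Pax6 was level and Meis2 was higher. The fold of a gene was (FPKM + 1)/(FPKM + 1), with FPKM a level corrected for transcript length and library size, and a gene was taken as lower below 0.65 and as higher above 1.54, as in the methods of the study. Beside it stands the count ratio, a gene's read share in a library over that in another, with its 95% interval by the exact Clopper-Pearson method. These intervals cover counting error only, and not differences between animals, dissections or library preparations. Reads that carry no molecular identifier may be copies of the same molecule, so even the counting error may be understated.

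Lhx2, a LIM homeodomain factor needed for eye formation and for keeping RPCs in cycle, had 2416 reads in Buffer, 2567 in Saline and 1446 in STZ, corresponding to FPKM values of 66.13, 70.24 and 39.48. STZ was the low library and the controls lay close to each other. The fold of Lhx2 was 0.603 for STZ/Buffer and 0.568 for STZ/Saline. By reads, the ratios were 0.597 (0.559 to 0.638) and 0.562 (0.527 to 0.6), beside 1.06 (1.01 to 1.12) for Saline/Buffer. Of the 5679 genes averaging 1000 counts or more, 11 had a lower count ratio than Lhx2 for STZ/Buffer and 15 for STZ/Saline. Nr2e1, whose product holds neural and retinal progenitors in an undifferentiated state, had 1758 reads in Buffer, 1841 in Saline and 1090 in STZ, with an FPKM of 40.79, 42.25 and 24.26. Its folds were 0.604 (STZ/Buffer) and 0.584 (STZ/Saline). By reads, Nr2e1 stood at 0.619 (0.573 to 0.668) of Buffer and 0.591 (0.548 to 0.637) of Saline, while the controls differed by less than the counting error, at 1.05 (0.981 to 1.12). For this gene the upper bound against Buffer lies above 0.65. In both comparisons with STZ, 22 of the 5679 genes had a lower count ratio than Nr2e1. Its reads per FPKM were 43.1 in Buffer, 43.6 in Saline and 44.9 in STZ, a spread of 4.25% between the highest and the lowest, the widest of the 9 genes, so the length behind its FPKM was not the same in each library.

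By the fold rule, 2 of the 9 genes were lower in STZ than in Buffer, where 1.04% of all genes were, and 0 were higher, where 2.25% were. Against Saline, 3 of the 9 were lower, where 1.75% of all genes were, and 0 were higher, where 2.04% were. Lhx2 and Nr2e1 passed against both controls, as did 0.630% of all genes and 0.405% of those averaging 1000 counts or more. With thresholds of 2 and 0.5 in place of these, 0 of the 9 passed in either STZ comparison. The share of all genes past these stricter thresholds was not computed, so this count has no background beside it. Between the controls, 0 of the 9 genes passed in either direction, beside 0.429% of all genes lower and 1.00% higher in Saline than in Buffer. The median log2 fold of the 9 genes was -0.20 for STZ/Buffer, -0.37 for STZ/Saline and 0.05 for Saline/Buffer. Over the 14885 genes averaging 10 counts or more the same medians were 0.03, 0.01 and 0.02. The 2 comparisons with STZ share the STZ library and are not independent of each other.

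**Figure D1:**
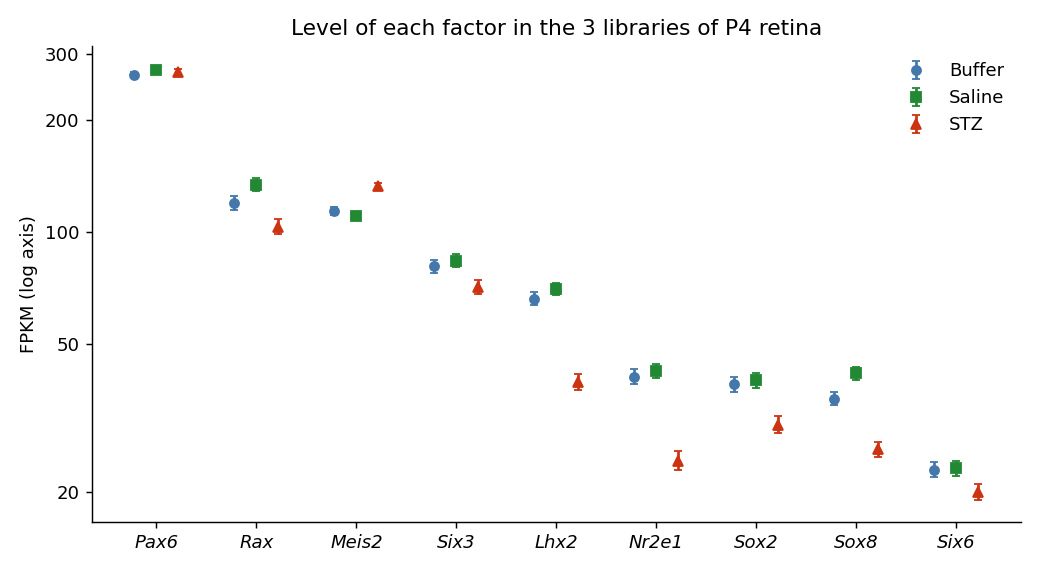
FPKM (log axis) of the 9 factors in the Buffer (circles), Saline (squares) and STZ (triangles) libraries, ordered by the level in Buffer, with exact 95% counting intervals as bars. STZ is the lowest library for Rax, Six3, Lhx2, Nr2e1, Sox2, Sox8 and Six6, the highest for Meis2, and for Pax6 the 3 libraries lie between 264.40 and 271.28.

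The letters before the start sites of Lhx2 and Nr2e1, the genes with the lowest folds, are shown with those of Pax6, Six3, Six6 and Sox2, whose folds were nearer to 1, so that the promoters of genes that moved differently can be set side by side. Promoter entries were found for 7 of the 9 genes in RefSeq sequences of the assembly GRCr8, and none was used for Sox8 and Meis2. GRCr8 is a later build than the rn6 to which the reads were mapped, and its positions are used only here. Each sequence is 250 bases, 5′ to 3′ on the gene's strand, ending just before the annotated start site, and capitals mark TGACAG, the MEIS core motif, or its reverse complement CTGTCA.
Lhx2, chr3:42535494-42535743, plus strand: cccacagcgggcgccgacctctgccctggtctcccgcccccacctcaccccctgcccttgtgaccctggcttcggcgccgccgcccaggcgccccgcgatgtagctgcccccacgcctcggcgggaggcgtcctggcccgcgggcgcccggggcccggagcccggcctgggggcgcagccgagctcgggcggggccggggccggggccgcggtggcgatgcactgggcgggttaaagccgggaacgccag
Nr2e1, chr20:47653465-47653714, minus strand: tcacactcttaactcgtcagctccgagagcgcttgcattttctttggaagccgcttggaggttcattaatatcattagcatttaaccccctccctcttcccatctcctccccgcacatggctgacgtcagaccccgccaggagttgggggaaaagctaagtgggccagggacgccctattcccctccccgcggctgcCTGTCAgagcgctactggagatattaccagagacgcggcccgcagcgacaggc
Pax6, chr3:112590346-112590595, plus strand: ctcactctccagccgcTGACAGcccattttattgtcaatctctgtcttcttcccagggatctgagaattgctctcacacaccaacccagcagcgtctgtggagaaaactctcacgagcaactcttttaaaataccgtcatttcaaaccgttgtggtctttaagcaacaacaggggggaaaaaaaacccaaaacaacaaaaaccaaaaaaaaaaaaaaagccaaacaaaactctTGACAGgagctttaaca
Six3, chr6:14796257-14796506, minus strand: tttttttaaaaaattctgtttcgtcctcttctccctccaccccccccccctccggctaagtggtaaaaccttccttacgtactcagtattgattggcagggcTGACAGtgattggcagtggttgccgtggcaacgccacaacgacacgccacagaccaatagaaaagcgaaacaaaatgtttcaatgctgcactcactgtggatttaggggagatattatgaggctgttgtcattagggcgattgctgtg
Six6, chr6:97370185-97370434, plus strand: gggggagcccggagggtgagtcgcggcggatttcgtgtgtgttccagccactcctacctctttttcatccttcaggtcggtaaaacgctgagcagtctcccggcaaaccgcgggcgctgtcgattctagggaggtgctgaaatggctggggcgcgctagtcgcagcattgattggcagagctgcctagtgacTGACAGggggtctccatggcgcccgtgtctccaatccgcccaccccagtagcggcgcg
Sox2, chr2:119464881-119465130, plus strand: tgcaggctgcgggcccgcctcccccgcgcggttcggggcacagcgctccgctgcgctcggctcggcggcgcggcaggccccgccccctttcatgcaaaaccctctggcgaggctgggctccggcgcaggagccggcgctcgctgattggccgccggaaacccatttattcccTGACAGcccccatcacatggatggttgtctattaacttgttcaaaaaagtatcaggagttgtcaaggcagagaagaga

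In the window from 250 bases before to 50 bases after the start site, TGACAG on either strand was present in 5 of the 7 promoters, those of Pax6, Six3, Six6, Sox2 and Nr2e1, and in 19.0% of the 33469 promoter entries of the table. Pax6 held it at 2 positions. Lhx2 and Rax held none, and the Lhx2 window consisted of 80.3% G and C, against a median of 51.7% over all entries and 43% for Pax6. The homeodomain core TAATTA was in 0 of the 7 and in 5.36% of all entries, and the SOX motif ATTGTT in 0 and in 11.7%. AAGTCA, the half-site read by Nr2e1 protein, was in the Nr2e1 promoter alone among the 7 and in 15.6% of all entries. TGGGAA, the RBPJ motif through which Notch acts, was in the promoters of Nr2e1 and Pax6 and in 25.7% of all entries, and the E2F motif TTTCCCGC was in 0 and in 0.974%. The genes with TGACAG included Nr2e1, lower past the threshold, and Pax6, level between the libraries, so presence of the motif did not separate the genes by fold. A match describes these letters only. Each gene was searched at its listed start site only, and whether that site is used in P4 retina was not tested.

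Among the SOX factors, Sox8, a SoxE gene expressed in RPCs and Müller glia, had 2360 (Buffer), 2754 (Saline) and 1728 (STZ) reads. The controls themselves stood apart here, with a count ratio of 1.17 (1.1 to 1.23) for Saline/Buffer, and 106 of the 5679 genes had a higher ratio between the controls. The fold of Sox8 was therefore 0.738 for STZ/Buffer but 0.634 for STZ/Saline, past the threshold in the second only, with count ratios of 0.731 (0.687 to 0.778) and 0.626 (0.589 to 0.665). Sox2, a SoxB1 gene that keeps RPCs neurogenic, had 1789 (Buffer), 1831 (Saline) and 1396 (STZ) reads. Its controls differed by less than the counting error, at 1.02 (0.959 to 1.09). STZ lay below both, with folds of 0.784 and 0.766 and count ratios of 0.779 (0.726 to 0.836) and 0.761 (0.709 to 0.816), short of the threshold.

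Rax, the retina and anterior neural fold homeobox gene, had 2090 reads in Buffer, 2341 in Saline and 1816 in STZ. Like Sox8 it was higher in Saline than in Buffer, by a count ratio of 1.12 (1.06 to 1.19), and STZ was the lowest of the 3 libraries. Its folds were 0.868 (STZ/Buffer) and 0.774 (STZ/Saline). Six3, a repressor of Wnt genes in the anterior neural plate, had 2358, 2435 and 2080 reads, and its relative Six6 had 1901, 1915 and 1658. These related genes lay close to each other, at folds of 0.882 and 0.876 for STZ/Buffer and 0.853 and 0.869 for STZ/Saline. The count ratios against Buffer were 0.881 (0.83 to 0.934) for Six3 and 0.871 (0.815 to 0.93) for Six6, and between the controls 1.03 (0.976 to 1.09) and 1.01 (0.946 to 1.07).

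Pax6, required for the multipotency of RPCs and expressed in amacrine and ganglion cells, had 12271 reads in Buffer, 12506 in Saline and 12605 in STZ, an FPKM of 264.40, 271.28 and 268.83. The 3 libraries were nearly level, with folds of 1.02 (STZ/Buffer) and 0.991 (STZ/Saline). By reads, Pax6 stood at 1.03 (1 to 1.05) of Buffer and 1.01 (0.981 to 1.03) of Saline, and its direction relative to Buffer turned with TMM scaling (a trimmed mean of ratios over genes), where the log2 fold was -0.0047. Meis2 was the only one of the 9 genes above both controls on every scaling tried, with 6883 reads in Buffer, 6657 in Saline and 8054 in STZ. Its folds were 1.16 (STZ/Buffer) and 1.2 (STZ/Saline), short of 1.54, with count ratios of 1.17 (1.13 to 1.21) and 1.21 (1.17 to 1.25). Against these, the ratio between the controls was 0.968 (0.936 to 1).

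**Figure D2:**
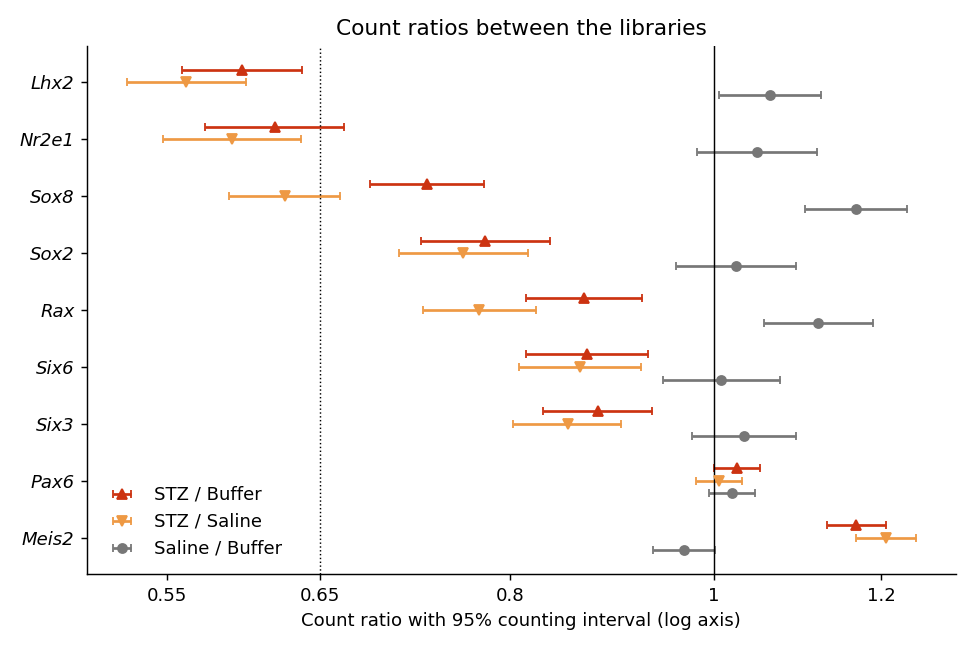
Count ratio (log axis) of each factor for STZ/Buffer, STZ/Saline and Saline/Buffer, with exact 95% counting intervals as bars, a solid line at 1 and a dotted line at the lower threshold of 0.65. Both STZ ratios lie below 1 for 7 genes, from 0.562 for Lhx2 against Saline to 0.881 for Six3 against Buffer, and above 1 for Meis2 and, by at most 1.03, for Pax6.

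At these depths the counting interval excluded 1 for small differences too. The interval lay below 1 for 7 of the 9 genes in STZ against Buffer, where it did for 30.1% of the 5679 highly covered genes, and above 1 for 2, where it did for 29.7%. Against Saline it lay below 1 for the same 7 genes, beside 33.7%, and above 1 for Meis2, beside 33.5%. Between the controls it lay above 1 for Rax, Lhx2 and Sox8, beside 19.2%, and below 1 for 0, beside 20.7%. An interval that excludes 1 was thus common between 2 control libraries and is not by itself a difference between conditions.

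**Figure D3:**
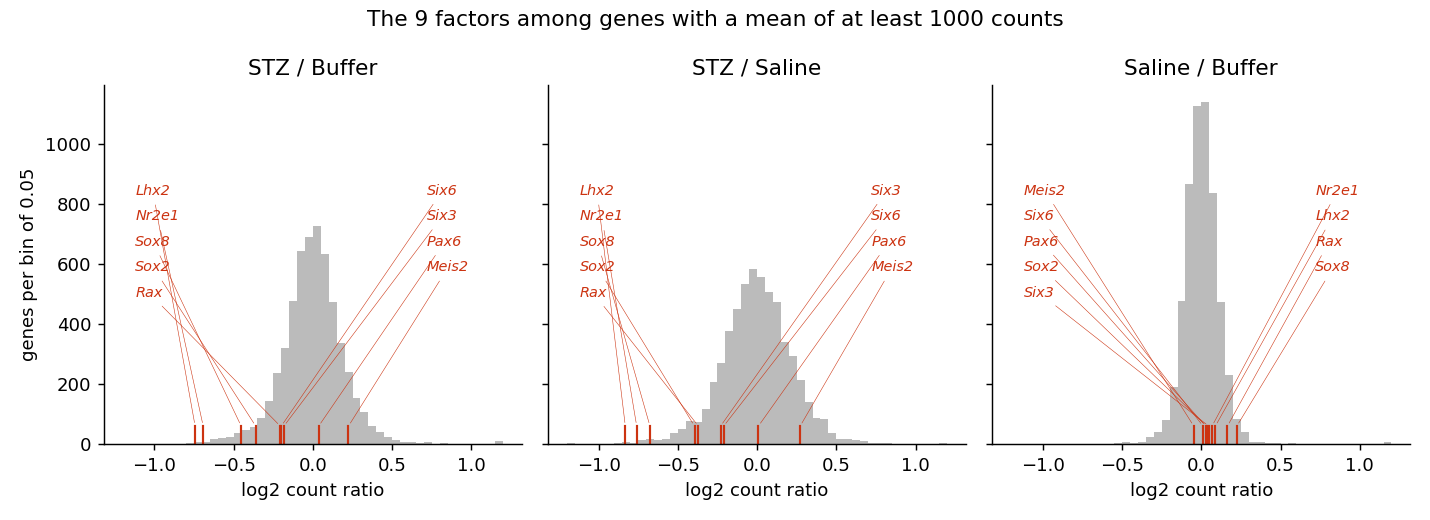
Histograms of the log2 count ratio of the 5679 genes averaging 1000 counts or more (bins of 0.05, values beyond the axis placed in the end bins), with the 9 factors as red ticks joined to their names. Lhx2 and Nr2e1 lie in the lower tail of both STZ comparisons, where 11 and 22 genes lie below them against Buffer. In Saline against Buffer, Sox8 lies in the upper tail, with 106 genes above it, and Rax has 305 genes above it.

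Levels between genes were compared by FPKM, which is per length. In Buffer the order was Pax6, Rax, Meis2, Six3, Lhx2, Nr2e1, Sox2, Sox8 and Six6, from 264.40 to 22.94 FPKM. Neighbours whose counting intervals overlapped were Rax and Meis2 (119.13 and 113.86) and Nr2e1 and Sox2 (40.79 and 38.89). In Saline the order was the same except that Sox8, at 41.61, stood above Sox2, at 39.86, and the intervals of Nr2e1, Sox8 and Sox2 overlapped from neighbour to neighbour. In STZ the order changed at 2 places. Meis2, at 132.55, stood above Rax, at 103.25, with intervals apart, and Nr2e1, at 24.26, came after Sox2 and Sox8, at 30.28 and 26.03, with its interval overlapping that of Sox8. Set against Pax6 within a library, which does not depend on the scaling between libraries, the FPKM of Pax6 was 4.0 times that of Lhx2 in Buffer, 3.86 times in the Saline library and 6.81 times in STZ. For Nr2e1 the same ratio was 6.48, 6.42 and 11.1. For Meis2 it moved the other way, at 2.32, 2.46 and 2.03.

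Other transcription factors of RPCs were also lower in STZ. The list held 22 genes averaging 10 counts or more, of which 20 had folds below 1 against Buffer and 22 against Saline, with median log2 folds of -0.35 and -0.46. Of all 14885 genes at that depth, 6433 had folds below 1 against Buffer and 7044 against Saline. By the threshold, 1 of the 22 was lower against Buffer and 7 against Saline, beside 171 and 291 of the 14885, and 0 of the 22 were higher. Sox9, the SoxE relative of Sox8, had 778, 795 and 480 reads and folds of 0.653, just short of the threshold, and 0.64. Sox4, with the highest mean count of the list, had 12430, 12570 and 10664 reads and folds of 0.857 and 0.847.

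Of the progenitor genes that are not transcription factors, 8 of 9 had folds below 1 in each STZ comparison, and Ccnd1 and Dll1 were lower past the threshold against both controls. Of the 14885 genes averaging 10 counts or more, 6433 and 7044 had folds below 1 against Buffer and Saline. Past the threshold, 171 and 291 of them were lower and 384 and 353 higher. Lower against both controls were 0.630% of all genes. Ccnd1, the cyclin D1 gene through which RPCs enter S phase, had 30498, 30728 and 18626 reads and folds of 0.611 and 0.605, close to those of Lhx2 and Nr2e1. Dll1, a Notch ligand gene, had 2765, 2999 and 1561 reads and folds of 0.573 and 0.529. The median log2 fold of these 9 genes was -0.33 against Buffer and -0.24 against Saline. In the list of S phase and mitosis genes the medians were -0.22 and -0.24 over 20 genes, with 0 lower and 0 higher past the threshold against Buffer and 1 lower, E2f1, against Saline. The directions were mixed, with 14 folds below 1 and 6 above against Buffer, and 16 and 4 against Saline. Ccnb1 had the highest folds of the list, 1.3 and 1.24. Mki67, the gene of the Ki67 antigen, had 14620, 14608 and 10042 reads and a fold of 0.69 against each control, while Top2a had 10953, 10390 and 10495 reads and folds of 0.957 and 1.01. The lowest fold among these 20 genes was that of E2f1, 0.674 against Buffer, above those of Lhx2 and Nr2e1, and 0.583 against Saline, above that of Lhx2 and just below that of Nr2e1 (0.584).

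The cofactors of the 9 proteins showed smaller differences, with median log2 folds of -0.11 and -0.07. Of them, 0 of 21 passed a threshold in either STZ comparison. Among the 14885 genes averaging 10 counts or more, 171 and 291 were lower and 384 and 353 higher. A count of 0 of 21 is near these shares. Ldb1, the LIM-domain binding adaptor on which Lhx2 acts, had 7988, 8292 and 6516 reads and folds of 0.807 and 0.783. Tle3, a Groucho corepressor gene, had 6894, 7493 and 5237 reads and folds of 0.74 and 0.682. Of the 21 genes, 13 had folds below 1 and 8 above 1 against Buffer, beside 6433 and 8339 of the 14885. Within the families of these cofactors the directions differed: Ldb2 (61, 52 and 103 reads) had folds of 1.44 and 1.48 and Tle2 folds of 1.34 and 1.23. Among genes of PBX partners of Meis proteins, Pbx2 had folds of 0.887 and 0.852 and Pbx3 folds of 1.29 and 1.32. Genes of the same families as the 9 factors had medians of 0.01 and -0.10 over 14 genes, and the first turned to -0.16 for genes averaging 50 counts or more. Pax2 fell against both controls, with 57, 53 and 10 reads in the order Buffer, Saline, STZ. Sox3, the SoxB1 relative of Sox2, had 262, 297 and 161 reads and folds of 0.668 and 0.598. Beside Meis2, Meis3 had folds of 1.12 and 1.13 in the same direction, while Meis1 had folds of 0.974 and 1.09. Nr2e3, the photoreceptor relative of Nr2e1, had 2203, 1963 and 3121 reads and folds of 1.41 and 1.57, above 1.54 against Saline only.

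**Figure D4:**
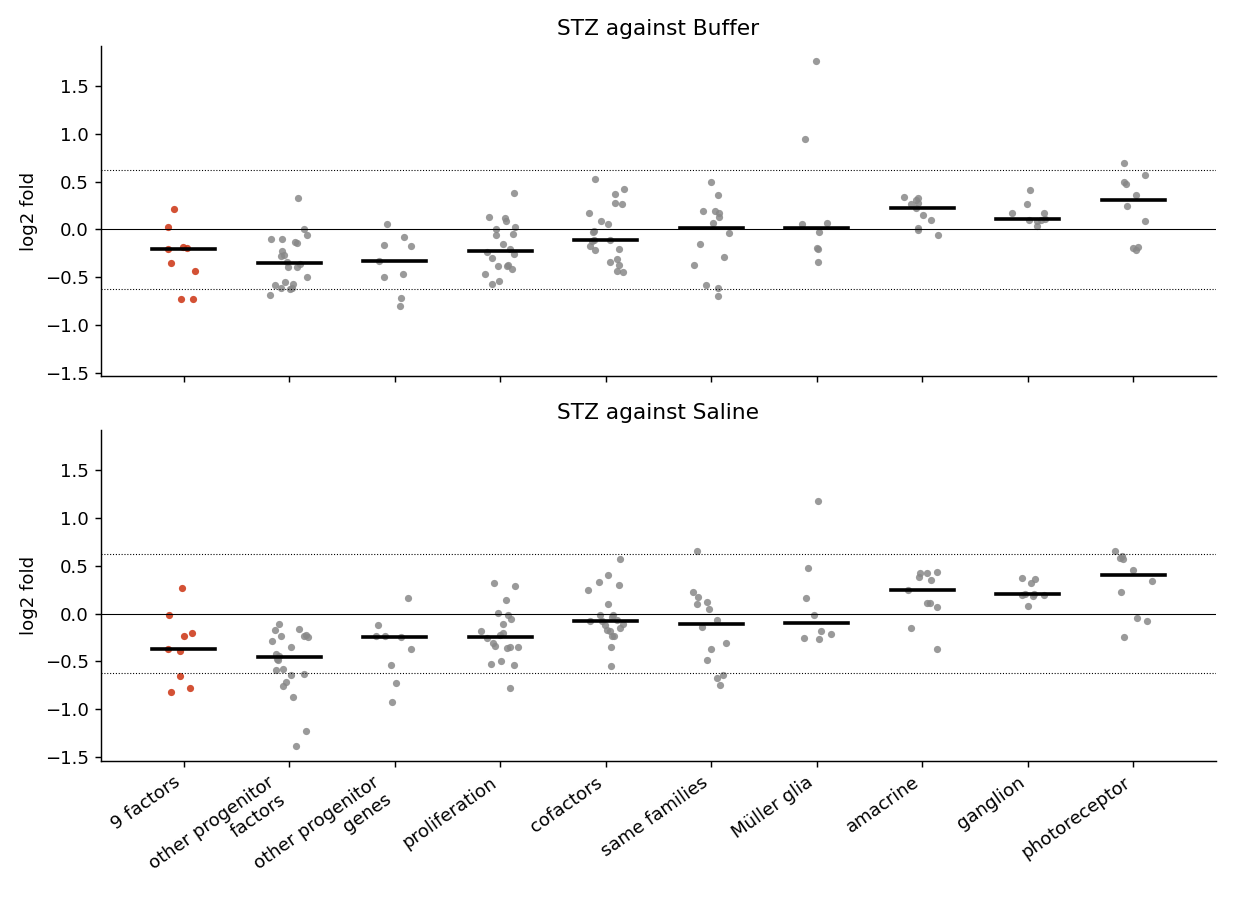
Log2 fold of each gene (points, mean of at least 10 counts) in 10 gene lists, in STZ against Buffer (top) and STZ against Saline (bottom), with list medians as black bars and dotted lines at the thresholds. The 9 factors (red) span -0.73 to 0.22 against Buffer, and the medians of the progenitor and proliferation lists lie below 0 while those of amacrine, ganglion and photoreceptor genes lie above 0.

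Markers of differentiated cells, some of which also express members of the group, are given next, and their part in the differences was not tested. The medians of amacrine, ganglion and photoreceptor genes lay above 0 in both STZ comparisons, opposite to that of the 9 factors. Of the 14885 genes averaging 10 counts or more, 8339 had folds above 1 against Buffer and 7759 against Saline. Past the threshold, 171 and 291 of them were lower and 384 and 353 higher, so a count of 0 in a short list is near these shares. Of 11 amacrine genes, 9 had folds above 1 in each STZ comparison, with median log2 folds of 0.22 and 0.24 and 0 past a threshold. The fold of Meis2 lay within the range of this list, and also within those of the ganglion and photoreceptor lists. Pax6, Six3 and Six6, which also stay on in amacrine or ganglion cells, had folds of 1.02, 0.882 and 0.876 against Buffer. Of the amacrine genes, Tfap2b had 10366, 9688 and 12763 reads and a fold of 1.21 against Buffer. Calb2 had 2885, 2820 and 3627 reads and a fold of 1.25. All 9 ganglion cell genes had folds above 1 in both STZ comparisons, with medians of 0.10 and 0.20 and 0 past a threshold, and Nefm, with the highest mean count, had a fold of 1.02 against Buffer. The 10 photoreceptor genes, a cell type in which the 9 factors are mostly off, had medians of 0.30 and 0.40. In each STZ comparison 7 of them had folds above 1 and 3 below, and 1 was higher past the threshold. The 3 below 1 were Otx2, Neurod1 and Prdm1, with folds of 0.874, 0.884 and 0.859 against Buffer. Among Müller glia genes the median was 0.02 against Buffer and -0.10 against Saline over 8 genes. Rlbp1, a retinoid-binding protein gene shared by late RPCs and Müller glia, had 6996, 6571 and 5501 reads and folds of 0.787 and 0.837. Apoe, which microglia also express, was the only gene of that list higher past the threshold against both controls, with folds of 3.38 and 2.26.

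Other tissues and cells were present to different degrees in the libraries, and their part in the values of the 9 genes was not tested. Ciliary margin and iris genes, where Rax, Pax6 and Meis genes are also expressed, summed to 273 CPM (each count scaled to a common library total) in Buffer, 547 in Saline and 245 in STZ over 7 listed genes. In Saline against Buffer, 4 of 5 measured genes were past 1.54. Most reads of this sum came from Tgfb2 (3877, 3930 and 3243) and Aldh1a1 (1904, 6838 and 1904), so it mainly follows these genes. Pigment epithelium genes summed to 47.8, 98.1 and 49.7 CPM over 10 listed genes. The Saline library, highest for both, also had the highest FPKM for 8 of the 9 factors, all but Meis2, with the widest gaps to Buffer for Sox8 and Rax. The folds for STZ/Buffer, which leave Saline out, were 0.603 for Lhx2, 0.604 for Nr2e1 and 0.738 for Sox8. Whether these tissues had a part in them was not tested. The 14 lens crystallin genes summed to 12.7, 33.1 and 221 CPM, highest in STZ, and 7 other lens fiber genes to 9.28, 13.0 and 13.0. Pax6, Six3 and Sox2 are lens genes as well, and in STZ their FPKM stood at 1.02, 0.88 and 0.779 of that in Buffer. Microglia genes summed to 60.2, 74.9 and 170 CPM over 9 genes. Immature retinal astrocytes also express Nr2e1, and astrocyte genes summed to 50.7, 51.5 and 24 CPM over 5 listed genes, with Pdgfra, S100b and Pax2 lower in STZ than in both controls and Aldh1l1 at 0, 1 and 0 reads. In Nr2e1 itself the CPM were 79.9, 83.8 and 49.5.

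The genes most like the group were sought by the root mean square distance between a gene's log2 CPM, centred over the 3 libraries, and the median profile of the 9 genes, which stood at 0.063 (Buffer), 0.14 (Saline) and -0.19 (STZ). Of the 5670 other genes averaging 1000 counts or more, 389 lay within 0.05, and 181 lay nearer than Rax, the nearest of the 9, so the profile was shared by many genes. The nearest 5 were Sh3bp5l, Rpl23a, LOC691387, Hmgb2 and Maf1, at distances of 0.0048 to 0.0072. Among them Hmgb2, a chromatin protein gene of dividing cells, had 12996, 13617 and 10888 reads, and reads of Rpl23a may be shared with processed copies. Of the 9 genes themselves Rax lay closest to the median profile, at 0.035, and Meis2 farthest, at 0.26, followed by Lhx2 at 0.23 and Nr2e1 at 0.20, so the group did not share a single profile.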

How the data were processed

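Total RNA of P4 rat retina was sequenced by the study as TruSeq libraries on an Illumina HiSeq. Per its methods and the submitters' processing notes, reads were checked with FastQC, trimmed at poor-quality 5′ ends, and mapped with TopHat2 to rn6 with up to 2 mismatches, and multiply mapped reads were discarded. FPKM came from a custom R script. The annotation and the tool behind the counts are not given in the sources used here. The authors deposited FPKM, TPM and an estimated count per gene. These estimated counts, which the authors deposited unnormalized, were rounded (2858 of 18425 genes have a fractional value). The per-library tables equal the series table. Folds, thresholds and intervals are as in the results, and processing alternatives included TMM (edgeR 4.0.16) and size-factor (DESeq2 1.42.0) scaling in R 4.3.3, TPM, other pseudocounts and thresholds. With 1 library per condition no model was fitted and no p-value computed. The factors, the 17 gene lists and the tests were chosen with earlier results of these data known. Named genes are the 9 factors, members of other lists past the thresholds against both controls or with the 2 highest mean counts, the 5 most similar genes, and some listed genes chosen after their values were seen. Values of some single genes of the lists are left out. Promoters came from RefSeq (GRCr8), matched by gene identifier, and no protein sequences were used. The ratio and interval code was tested on simulated data. Python 3.11.15, numpy 2.4.6, pandas 2.3.3, scipy 1.17.1 and matplotlib 3.10.9 were used.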

Additional observations from a re-analysis of the deposited data

How the results depend on the processing

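With 1 library per condition leaving out a replicate and fitting a batch were not possible. No paired analysis was possible because each condition is 1 library and the labels give no replicate numbers. Of 144 recomputed folds of the 9 genes, 143 stayed within the counting interval of the value given, the largest shift was 0.113 on the log2 scale, and 5 changed sign, all of them folds of Pax6 or Six6 near 1. The exception was Sox8, whose log2 fold against the mean of both controls was -0.55. With thresholds of 2 and 0.5, 0 genes were lower in STZ against Buffer and 0 against Saline, and no share of all genes was computed at these thresholds. With an interval that excludes 1 as the rule, 7 genes were lower in STZ against Buffer and 2 higher, 7 were lower against Saline and 1 higher, and 3 were higher in Saline against Buffer. The other alternatives, a pseudocount of 0.1, count ratios, TPM, TMM or DESeq2 scaling, the mean of both controls and minimum counts of 10 or 1000, kept every count of genes past the thresholds within 1.5 times the value given. The median log2 fold of the 9 genes was between -0.29 and -0.20 for STZ/Buffer and between -0.38 and -0.37 for STZ/Saline. Of the medians of the other lists, 7 moved beyond the counting error, all of lens, astrocyte, ciliary, pigment or Müller glia genes.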

Other observations

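The horizontal cell list had a median log2 fold of 0.13 (STZ/Buffer) and 0.04 (STZ/Saline) over 5 genes. Of these, 0 were past a threshold, beside 171 and 291 lower and 384 and 353 higher of the 14885 genes averaging 10 counts or more. The list is too short for this count to differ from those shares. The median for STZ/Buffer turned to -0.05 for genes averaging 50 counts or more, and the list summed to 230.1 (Buffer), 214 (Saline) and 198 (STZ) CPM. Prox1, a homeobox gene of late RPCs and horizontal cells, had 4297 (Buffer), 3986 (Saline) and 3501 (STZ) reads and folds of 0.795 and 0.857, and Onecut1 and Onecut2, factors of early-born cells, differed in direction. Onecut1 had 387, 348 and 485 reads and folds of 1.09 and 1.29, and Onecut2 had 138, 120 and 89 reads and folds of 0.85 and 0.902.

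Among the other progenitor factors, Tbx5 and Id3 differed more between the controls than between STZ and Buffer. Tbx5, which marks dorsal retina, had 150, 305 and 92 reads and folds of 1.84 (Saline/Buffer) and 0.706 (STZ/Buffer). For Id3 the reads were 323, 558 and 300 and the same folds 1.70 and 0.93. Hes5, a Notch target gene, was lower in Saline than in Buffer, at 1174, 821 and 769 reads and folds of 0.705 (Saline/Buffer) and 0.655 (STZ/Buffer). Of 14 promoter entries that matched this list, 2 held TGACAG on either strand, those of Foxd1 and Tbx5, beside 5 of 7 for the 9 factors and 19.0% of all entries. These counts are descriptions.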
